A study of Mus musculus with 6 samples.

Results

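The cytosolic ribosomal protein genes were taken as the 83 rows whose symbol was Rpl or Rps followed by a number and at most one of the letters a, l, x or y, or was Rplp0, Rplp1, Rplp2 or Rpsa, out of 57508 rows in the gene tables. Of the 83 genes, 51 belong to the large subunit and 32 to the small subunit. KPC1199 is a mouse cell line labelled as pancreatic tumour cells, and RNA was sequenced from 3 libraries of ACSL5 knockdown cells and 3 libraries of WT cells. The genotype field of the first group says knockdown while its titles say KO, every library name, in both groups, starts with siACSL5 and adds a code of its group, and the labels give neither the meaning of these codes nor a time after treatment. Whether the libraries of a group came from separate cultures is not stated, so p-values measure the spread between libraries, which may be technical.

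The cytosolic ribosome carries its peptidyl transferase centre in the large subunit and decodes messenger RNA in the small subunit. Ribosomal proteins are made in the cytosol, imported into the nucleolus and assembled there on ribosomal RNA, and each mature ribosome holds most of them in a single copy. Their messenger RNAs are short and abundant, usually begin with a cytosine followed by a run of pyrimidines (the 5′ terminal oligopyrimidine, or TOP, tract) through which the mTORC1 pathway and LARP1 control their translation, and have given rise to many processed pseudogenes in the mouse genome.

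The copies matter for reading the counts, because a transcript and a copy with the same letters cannot be told apart by short reads. Among GENCODE M21 transcripts, 1068 other rows were near-identical to a ribosomal protein transcript, with at least 90% identity over at least 80% of the copy. They belonged to 76 of the 83 genes, 1021 were annotated as processed pseudogenes, and 530 had counts in at least one library. For 51 of the 77 genes that passed the filter on low counts, over 99% of the counts of the gene and its copies lay on the gene's own row. For 18 genes the own row held less than 90%. The most divided was Rpl12, a protein at the base of the large subunit's stalk, with 4.93% of the counts on its own row. Rpl5, which binds the 5S ribosomal RNA, had 18.99% and Rpl27a of the large subunit 26.53%. The first coding bases of 3 of these genes and of the copy with the most counts are shown because they are the same letters.
Rpl12 (chr2:32961559-32965345, plus strand, coding bases 1 to 60): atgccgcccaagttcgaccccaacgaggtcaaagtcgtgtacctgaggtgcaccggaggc
Gm10275 (chr10:29698746-29699380, minus strand): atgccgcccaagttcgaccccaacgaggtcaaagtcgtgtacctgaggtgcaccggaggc
Rpl5 (chr5:107900502-107909005, plus strand, coding bases 1 to 60): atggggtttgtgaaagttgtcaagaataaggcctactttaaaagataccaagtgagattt
Gm15500 (chr7:114705217-114706235, minus strand): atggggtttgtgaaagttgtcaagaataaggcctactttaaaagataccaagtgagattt
Rpl27a (chr7:109519147-109522367, plus strand, coding bases 1 to 60): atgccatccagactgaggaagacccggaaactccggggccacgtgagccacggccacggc
Gm7536 (chr3:24333068-24333511, plus strand): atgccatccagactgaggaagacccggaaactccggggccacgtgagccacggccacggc
Coordinates are those of the genes in GRCm38. The copies held all 495 coding bases of Rpl12, all 891 of Rpl5 and all 444 of Rpl27a without a difference. Values of these genes are therefore given for the gene's own row and for the sum with its near-identical rows.

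Library totals lay between 21794244 and 29996194 expected counts. The targeted gene, Acsl5, which joins long-chain fatty acids to coenzyme A, had 49.8, 55.6 and 57.2 CPM (counts scaled to a fixed library size, here with TMM) in the knockdown libraries, against 342.4, 265.2 and 270.2 CPM in the WT libraries. No knockdown library overlapped a WT library, and the knockdown mean was 18.5% of the WT mean (two-sided exact permutation test, p = 0.1, the smallest that 3 against 3 libraries can give). The log2 fold change was −2.43 ± 0.17 (SE) with all 6 libraries (edgeR, adjusted p = 0.062) and −2.32 ± 0.06 without WT replicate 1 (adjusted p = 5.95e-08). The epithelial keratin genes Krt8, Krt18 and Krt19 were abundant in every library, at 1047 CPM or more, whereas Cldn4 and, among leukocyte, endothelial and erythroid genes, Adgre1, Cd3e, Cdh5, Tek, Hba-a1 and Hbb-bs were at 0 in all 6. Of the same lists Cd68 had 3.34 to 5.27 CPM, and of 7 fibroblast genes 4 averaged over 1 CPM, led by Col3a1 at 164.1 to 255.2 CPM and Pdgfra at 46.9 to 91.4 CPM. WT replicate 1 stood apart. Its summed CPM over the 7 epithelial genes was 13160, against a range of 6974 to 7399 in the other 5 libraries. Krt8, Krt18 and Krt19 carried that sum, whereas Cdh1 was lowest there, at 201.7 CPM against 269.8 to 376.3 CPM, and the fibroblast sum was also lowest there, at 225.4 CPM against 292.2 to 368.5 CPM. The part of these differences in the results below was not tested.

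Ribosomal protein genes took 3.61, 4.09 and 4.26% of the counts of the knockdown libraries, against 9.46, 3.85 and 3.90% in WT replicates 1, 2 and 3. WT replicate 1 was far above the other 5 libraries, which spanned 3.61 to 4.26%. The share averaged 3.98 ± 0.34% in knockdown cells (SD, n = 3) and 5.74 ± 3.23% in WT cells (SD, n = 3), or 3.88 ± 0.03% over WT replicates 2 and 3 (n = 2). As a share of the deposited TPM, which allows for transcript length, the genes took 11.6, 12.5 and 12.5% in the knockdown libraries, against 20.2, 11.8 and 11.7% in the WT libraries. The share therefore lay below the WT mean in knockdown cells with all libraries, and the difference changed from −1.76 to 0.11 percentage points of counts once WT replicate 1 was left out. In bulk RNA, fewer cells of a type and less RNA per cell cannot be told apart.

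**Figure D1:**
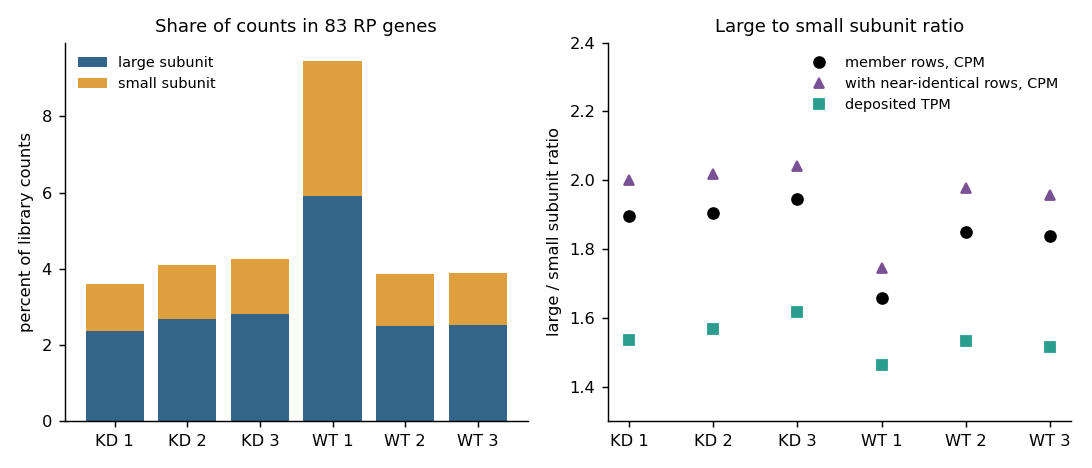
Left, percent of each library's expected counts in the 83 ribosomal protein genes, split by subunit; right, summed CPM or TPM of the large subunit genes over that of the small subunit genes. KD is ACSL5 knockdown. WT replicate 1 holds 9.46% against 3.61 to 4.26% in the other libraries, and its ratio is the lowest on each scale.

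On their own rows, 73 of the 77 tested genes had their highest CPM in WT replicate 1, and 66 were more than 2-fold above the mean of WT replicates 2 and 3. The median ratio was 3.18, with 3.11 for the large and 3.28 for the small subunit. The rise was not the same for all members. The 4 genes with their own-row maximum elsewhere were Rpl13, Rpl27a, Rpl36 and the stalk gene Rplp2. With near-identical rows, WT replicate 1 was highest for Rpl13 and Rpl27a too. It then had 769.0 CPM for Rpl13, against at most 654.4 CPM elsewhere, and 900.1 CPM for Rpl27a, against at most 450.9 CPM. Rplp2 had 190.2, 206.3 and 224.4 CPM in the knockdown libraries, against 123.5, 147.8 and 116.8 CPM in the WT libraries. Rpl36 had 131.4, 174.1 and 220.3 CPM in the knockdown libraries, against 111.3, 132.5 and 94.2 CPM in the WT libraries. For Rplp2 and Rpl36, WT replicate 1 lay among the other WT libraries, at 0.93 and 0.98 times their mean. At the other end, the own rows of Rpl13 and Rpl37a were 5.47 and 5.01 times as high in WT replicate 1 as in the other WT libraries. With near-identical rows, Rpl13 had 194.6 and 191.4 CPM in WT replicates 2 and 3.

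With all 6 libraries, none of the 77 tested genes passed an adjusted p below 0.05, nor did any of the 14679 genes tested (edgeR, background 0%). An unadjusted p below 0.05 was found for 3 of the 77 members and for 2351 of the 14679 genes. DESeq2 called 1 member, Rplp2, against a background of 4.78%. The median log2 fold change of the members was −0.84, against −0.02 over all genes tested, with 70 negative and 7 positive values. Removing a trend with transcript length brought the median to −0.28, and leaving out WT replicate 1 brought it to −0.06, against −0.01 over all genes tested. The lowest own-row value with all 6 libraries belonged to Rpl10, at −1.55 ± 0.66 (SE; edgeR, adjusted p = 0.33). Rpl10, a late-joining protein near the tRNA sites of the large subunit, had 162.5, 247.4 and 231.3 CPM in the knockdown libraries, against 1309, 283.7 and 285.7 CPM in the WT libraries, on its own row. That row held 55.29% of the counts of the gene and its copies. With near-identical rows Rpl10 was not extreme, at −0.75 ± 0.43 (edgeR, adjusted p = 0.42), against a member median of −0.83.

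Without WT replicate 1, 7 of the 77 tested genes (9.09%) passed, against 34.3% of the 15152 genes tested and 49% of the 5258 genes at least as abundant as the least abundant tested member. Of the members, 5 were higher in knockdown cells (background 16.3%) and 2 lower (background 18%). In this fit the share of members called was below the background in each direction, and 59 of 77 had a log2 fold change between −0.25 and 0.25. The SE of a member's log2 fold change was larger than that of other abundant genes, with a median of 0.12 against 0.06. With the near-identical rows added, a setting chosen after seeing the data, 6 of 77 were called, against a background of 34.8% (5 higher, background 16.6%, and 1 lower, background 18.2%), all of them among the 7.

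**Figure D2:**
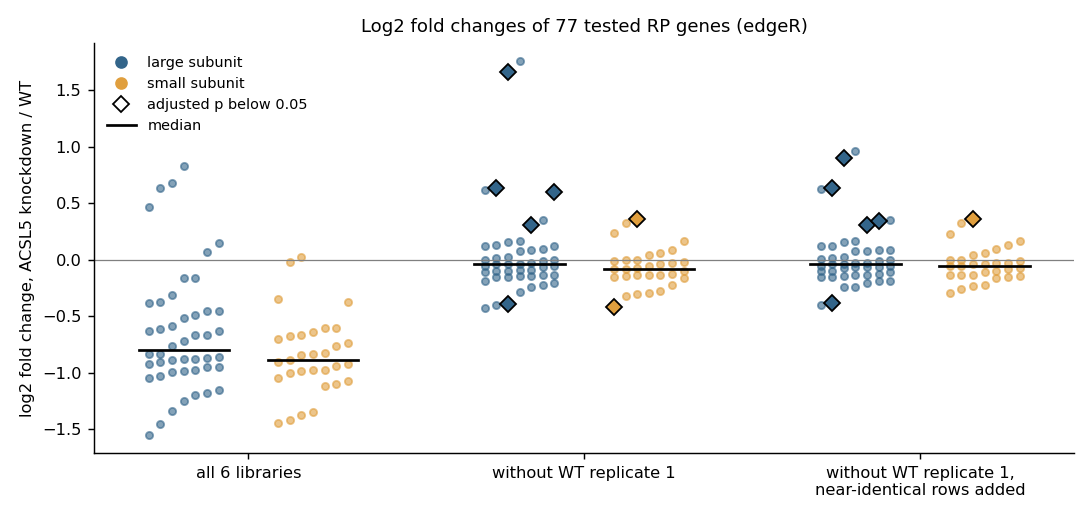
Log2 fold change, ACSL5 knockdown over WT, of the 77 tested ribosomal protein genes by subunit in 3 edgeR fits; bars are medians and diamonds are genes with an adjusted p below 0.05. The medians are −0.80 and −0.89 for the large and small subunit with all 6 libraries and lie between −0.09 and 0 without WT replicate 1.

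Knockdown replicate 1 also stood apart among these genes. It was the lowest of the 3 knockdown libraries for 71 of 77 genes and the lowest of all 6 libraries for 61. Short transcripts were lowest: the median log2 difference between knockdown replicate 1 and the mean of the other knockdown libraries was −0.46 for the 20 genes under 600 bases and −0.23 for the 57 longer ones. Across the 77 genes, Spearman's rho of this difference with the deposited transcript length was 0.55, and rho between length and the excess in WT replicate 1 was −0.24, both given as descriptions over genes that share the same libraries. Rps28 of the small subunit, with a length of 437 bases, had 63.3, 112.5 and 156.4 CPM in the knockdown libraries, against 618.8, 127.0 and 142.6 CPM in the WT libraries. Rps29, with 390 bases, had 59.2, 100.8 and 142.0 CPM in the knockdown libraries, against 237.0, 119.2 and 122.7 CPM in the WT libraries. In both genes the knockdown libraries lay on both sides of WT replicates 2 and 3.

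Leaving out knockdown replicate 1 as well changed the number of calls most. With 2 libraries a group, 29 of 77 genes (37.7%) passed, against 41.4% of the 14936 genes tested, and 6 of the 7 genes above were among them. Of these 29, 16 large and 6 small subunit genes were higher in knockdown cells, 28.6% of the members against a background of 21.1%, and 4 large and 3 small subunit genes were lower, 9.09% against 20.3%. In this fit the share of members called higher was thus above that over all genes tested, and the share called lower was below it. The share over genes as abundant as the members was not taken for this fit, so no excess at equal abundance is shown. The median log2 fold change of the members was then 0.04, and their median SE was 0.04. Removing trends with transcript length and GC content, with all 5 libraries kept, called 5 genes higher (background 16.6%) and 16 lower (background 16.7%; either direction 33.4%), so the split between directions depended on the treatment of the libraries. Whether length, GC content or RNA quality accounts for the deviations of these libraries was not tested.

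**Figure D3:**
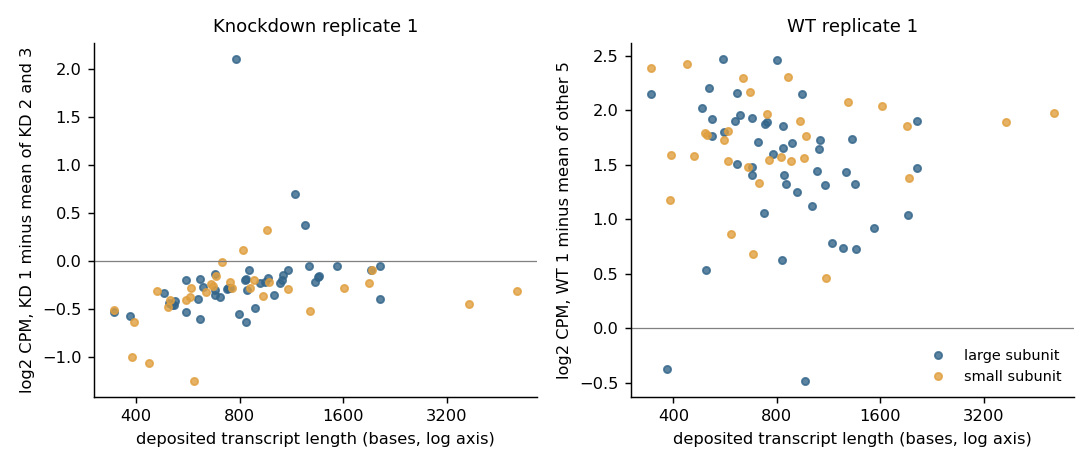
Deviation of knockdown replicate 1 from the mean of knockdown replicates 2 and 3 (left) and of WT replicate 1 from the mean of the other 5 libraries (right), in log2 CPM with 0.5 added, against deposited transcript length on a log axis, one point per tested gene. Most points lie below 0 on the left, lower for short transcripts, and most lie above 0 on the right.

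The large subunit, with 46 of the 77 tested genes, gave 5 of the 7 calls without WT replicate 1. The share called was 10.9% in the large and 6.45% in the small subunit, both below the 34.3% over all genes tested. Among the stalk proteins, which recruit translation factors, Rplp2 was higher in knockdown cells, with a log2 fold change of 0.63 ± 0.14 (SE; edgeR, adjusted p = 0.026). The CPM of Rplp2 in the 3 knockdown libraries, given above, lay above those of all 3 WT libraries. Rplp2 was the only one of the 77 genes with every knockdown library above every WT library, while 13 had every knockdown library below. The share of all genes tested that separated in this way was not taken. With WT replicate 1 the log2 fold change of Rplp2 was 0.68 ± 0.15 (adjusted p = 0.15). The settings under which the call for Rplp2 was lost included the omission of knockdown replicate 1 (0.71, adjusted p = 0.085) and the use of deposited TPM (0.31 on the log2(TPM + 1) scale, limma, adjusted p = 0.33). Its partner Rplp1 had 325.3, 393.7 and 497.2 CPM in the knockdown libraries, against 528.6, 320.6 and 309.8 CPM in the WT libraries. Rplp1 did not pass (0.35 ± 0.23, adjusted p = 0.34), although its knockdown libraries all lay above WT replicates 2 and 3. It passed on log2(TPM + 1), at 0.42 (limma, adjusted p = 0.034), and in edgeR with the length trend removed (0.41, adjusted p = 0.0023) or length and GC trends removed (0.22, adjusted p = 0.029). Rplp0, which anchors both, had 2221, 2511 and 2436 CPM in the knockdown libraries, against 3777, 2155 and 2076 CPM in the WT libraries, and a log2 fold change of 0.16 ± 0.06 (adjusted p = 0.061).

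Rpl12, which sits beside Rplp0 at the base of the stalk, was higher on its own row, with 56.7, 39.5 and 48.3 CPM in the knockdown libraries, against 67.4, 32.9 and 29.96 CPM in the WT libraries (log2 fold change 0.60 ± 0.16, SE; adjusted p = 0.033). With near-identical rows the sum was 889.6, 858.8 and 875.1 CPM in the knockdown libraries, against 1650, 738.2 and 631.0 CPM in the WT libraries. The knockdown libraries lay above WT replicates 2 and 3 and below WT replicate 1 in this sum. Its log2 fold change without WT replicate 1 was 0.34 ± 0.06 (adjusted p = 0.0029). The row of the copy Gm10275 was itself called, at 0.32 ± 0.06 (adjusted p = 0.0045). The own-row call was lost on TPM, after removal of the length trend, or without knockdown replicate 3, WT replicate 2 or WT replicate 3 (adjusted p between 0.062 and 0.20 in these).

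Rpl27a showed the largest called difference. Its own row had 188.5, 111.6 and 121.0 CPM in the knockdown libraries, against 150.1, 44.6 and 43.1 CPM in the WT libraries, a log2 fold change of 1.66 ± 0.31 (SE; edgeR, adjusted p = 0.033). With its near-identical rows, Rpl27a had 450.9, 361.7 and 415.2 CPM in the knockdown libraries, against 900.1, 219.8 and 214.9 CPM in the WT libraries. The log2 fold change of the sum was 0.90 ± 0.09 (adjusted p = 2.77e-04), and the copy Gm7536 alone gave 0.62 ± 0.07 (adjusted p = 2.5e-04). The 3 knockdown libraries thus lay above WT replicates 2 and 3 for the gene and for the sum, and WT replicate 1 lay among them on the own row and above them in the sum. The call for the own row was lost with no filter on low counts (adjusted p = 0.063) and without knockdown replicate 3, WT replicate 2 or WT replicate 3 (adjusted p = 0.06, 0.18 and 0.20).

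Rpl8, which contacts the peptidyl transferase centre, had 1117, 1173 and 1215 CPM in the knockdown libraries, against 2682, 982.0 and 885.1 CPM in the WT libraries. The knockdown libraries did not overlap WT replicates 2 and 3, and the log2 fold change was 0.31 ± 0.06 (SE; edgeR, adjusted p = 0.0031). It was −0.38 ± 0.45 with WT replicate 1 (adjusted p = 0.68), 0.07 with length and GC trends removed (adjusted p = 0.24) and 0.23 without WT replicate 3 (adjusted p = 0.065).

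Rpl5, which with Rpl11 and the 5S RNA forms a particle that can bind MDM2, was lower in knockdown cells. Its own row had 149.5, 153.7 and 156.0 CPM in the knockdown libraries, against 473.3, 197.6 and 199.4 CPM in the WT libraries, and the groups did not overlap with or without WT replicate 1. The log2 fold change was −0.39 ± 0.05 (SE; edgeR, adjusted p = 1.52e-04). With near-identical rows the gene had 720.0, 803.3 and 838.4 CPM in the knockdown libraries, against 2633, 1003 and 1037 CPM in the WT libraries, and the same log2 fold change of −0.39 ± 0.07 (adjusted p = 0.0024). Of the 7 calls, this was the only one kept in every alternative that left out WT replicate 1. With WT replicate 1 the value was −0.92 ± 0.37 (adjusted p = 0.31). Rpl11 itself had 389.2, 425.5 and 464.8 CPM in the knockdown libraries, against 1575, 437.1 and 466.2 CPM in the WT libraries, and a log2 fold change of −0.10 ± 0.08 (adjusted p = 0.39).

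**Figure D4:**
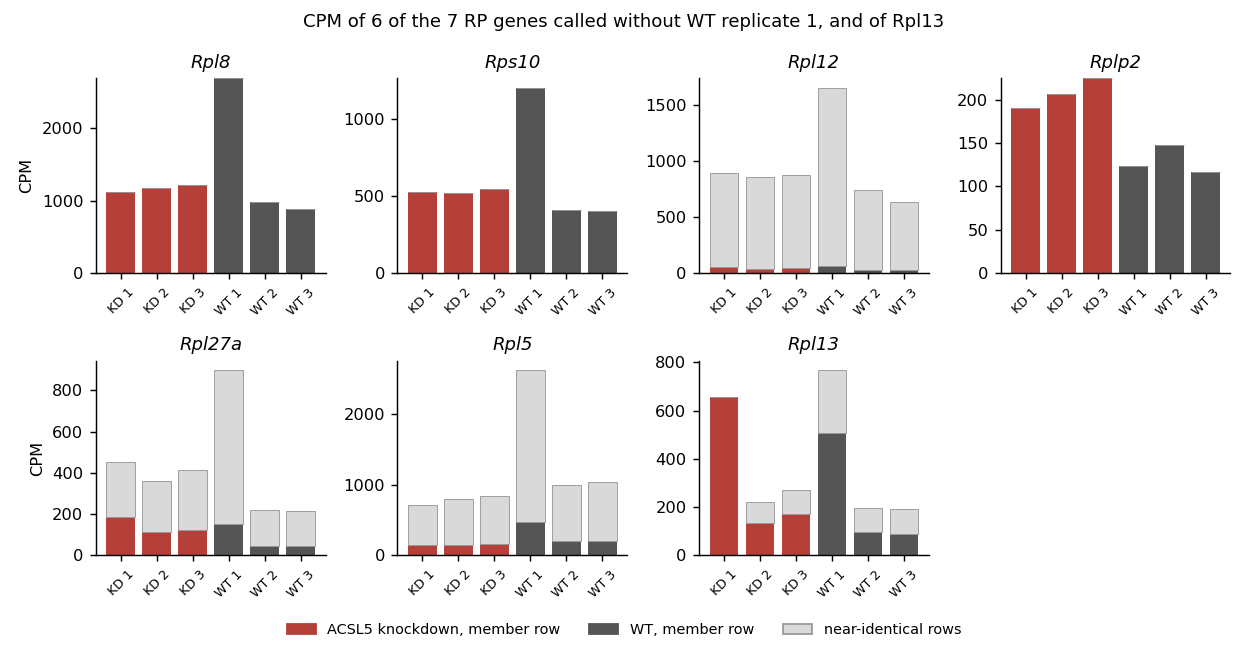
CPM per library on the member's own row (coloured) and on its near-identical rows (light grey) for 6 of the 7 genes called without WT replicate 1 and for Rpl13. For Rpl12, Rpl27a and Rpl5 most counts lie on the near-identical rows, and in Rpl13 knockdown replicate 1 has none there.

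In the small subunit, Rps10, which lies on the head of the subunit, was higher in knockdown cells, with 523.8, 516.7 and 541.6 CPM in the knockdown libraries, against 1198, 410.1 and 404.9 CPM in the WT libraries. The log2 fold change was 0.36 ± 0.04 (SE; edgeR, adjusted p = 2.08e-04). It was −0.35 with WT replicate 1 (adjusted p = 0.71) and 0.03 with length and GC trends removed (adjusted p = 0.64). Rps10 has a transcript GC content of 60.3%, against a median of 49.2% over all genes tested.

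The remaining genes at the ends of the order did not pass in the edgeR fit without WT replicate 1. Rpl13 had the highest log2 fold change, 1.76 ± 0.99 (SE; adjusted p = 0.29), with 654.3, 133.0 and 171.6 CPM in the knockdown libraries, against 508.5, 96.4 and 89.7 CPM in the WT libraries. Without knockdown replicate 1 the value was 0.71 (adjusted p = 0.098). Its copy Gm12918, which holds the same 633 coding bases, had 0, 87.5 and 98.4 CPM in the knockdown libraries, against 260.3, 97.8 and 101.5 CPM in the WT libraries. With near-identical rows the log2 fold change of Rpl13 was 0.96 ± 0.63 (edgeR, adjusted p = 0.35). Rpl36 followed, at 0.62 ± 0.33 (adjusted p = 0.27), and Rps26, which lies at the exit of the messenger RNA channel, had 0.33 ± 0.10 (adjusted p = 0.058). Rps26 passed in several alternatives, among them DESeq2 (0.34, adjusted p = 0.0011), limma-voom (0.33, adjusted p = 0.0235) and edgeR with length and GC trends removed (0.38, adjusted p = 0.041). It did not pass on log2(TPM + 1), at 0.37 (limma, adjusted p = 0.0565).

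On the low side, Rpl10 had −0.43 ± 0.23 (SE; edgeR, adjusted p = 0.26) on its own row and −0.13 ± 0.07 (adjusted p = 0.19) with near-identical rows. Rpl39, which lines the exit tunnel, had −0.40 ± 0.24 (adjusted p = 0.31). Rps6, the substrate of S6 kinase, had 558.2, 712.7 and 580.4 CPM in the knockdown libraries, against 1947, 767.5 and 761.5 CPM in the WT libraries, and −0.32 ± 0.12 (adjusted p = 0.11). With near-identical rows Rps6 had 736.0, 791.3 and 782.3 CPM in the knockdown libraries, against 2414, 781.5 and 787.5 CPM in the WT libraries, so that knockdown libraries overlapped WT replicates 2 and 3 and the log2 fold change was −0.04 ± 0.05 (adjusted p = 0.55). Rps27a, made as a fusion with ubiquitin, had −0.31 ± 0.13 (adjusted p = 0.13). The own rows of Rps6 and Rps27a were called by DESeq2 and by limma-voom without WT replicate 1. Rps28 and Rpl36a, with −0.29 each on their own rows, had adjusted p = 0.70 and 0.15. With near-identical rows Rps28 had −0.03 ± 0.45 (edgeR, adjusted p = 0.97) and Rpl36a −0.24 ± 0.17 (adjusted p = 0.35).

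Large and small subunit genes differed little from each other. Without WT replicate 1 the median log2 fold change was −0.04 over 46 large subunit genes and −0.08 over 31 small subunit genes, a difference of 0.04. With all 6 libraries the medians were −0.80 and −0.89, a difference of 0.09. Calls without WT replicate 1 were 4 higher and 1 lower in the large subunit and 1 higher and 1 lower in the small subunit. These were 10.9% and 6.45% of the tested genes of each subunit, against 34.3% over all genes tested. The summed CPM of large over small subunit genes was 1.90, 1.91 and 1.95 in the knockdown libraries, against 1.66, 1.85 and 1.84 in the WT libraries. These ratios did not overlap between the groups, with means of 1.92 ± 0.03 in knockdown cells (SD, n = 3) and 1.78 ± 0.11 in WT cells (SD, n = 3), or 1.84 ± 0.01 over WT replicates 2 and 3 (n = 2). On deposited TPM the ratio was 1.53, 1.57 and 1.62 in the knockdown libraries, against 1.46, 1.53 and 1.52 in the WT libraries, with knockdown replicate 1 at 1.535 and WT replicate 2 at 1.532. No test was made on these sums over members.

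Levels per transcript length spanned a wide range. On the deposited TPM scale, the median over the 77 tested genes of the mean of 6 libraries was 1483 TPM, with quartiles of 958.5 and 2442 TPM. The highest was Rpl23a, on the outside of the exit tunnel, with 4782 ± 56.3 TPM in knockdown cells and 5896 ± 2174 TPM in WT cells (SD, n = 3 each). It was followed in the large subunit by Rpl19 at 4055 TPM over the 6 libraries, with Rpl26 at 3511 TPM. In the small subunit Rps2 led, with 3883 ± 187.3 TPM in knockdown cells and 4357 ± 1463 TPM in WT cells (SD, n = 3 each), ahead of Rps24, Rps18 and Rps12 at 3490, 3402 and 3033 TPM. Neighbours in the order of these 7 genes were separated by less than the SD of their WT libraries. None of these 7 genes passed in the fit without WT replicate 1, where their log2 fold changes lay between −0.15 for Rps24 and 0.17 for Rps2. The lowest tested row, Rpl12 at 67.4 TPM, came to 3008 TPM with its near-identical rows, and the lowest sum was then that of Rps27l at 283.7 TPM.

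Of the paralogs Rpl3l, Rpl10l, Rpl39l, Rps4l and Rps27l, the last, a relative of Rps27 that p53 induces, passed the filter on low counts. Rps27l had 36.2, 44.3 and 50.0 CPM in the knockdown libraries, against 126.1, 39.0 and 47.2 CPM in the WT libraries, and a log2 fold change without WT replicate 1 of −0.0028 ± 0.17 (SE; edgeR, adjusted p = 0.99). The 6 genes not tested were Rpl10l, Rpl32l and Rpl6l, at 0 in all 6 libraries, and Rpl3l, Rpl39l and Rps4l. Rpl3l, known from striated muscle, had 1, 1 and 0 counts in the knockdown libraries, against 0, 0 and 0 in the WT libraries. Rpl39l, known from male germ cells, had 1 count in all. Rps4l had 9, 3 and 1 counts in the knockdown libraries, against 0, 1 and 0 in the WT libraries, too few for the filter on low counts.

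Ribosomal proteins whose symbols fall outside the naming rule were compared next. Of 6 such genes, which include Fau, Rack1, Rpl22l1, Rpl36al and Rpl7l1, 2 were lower (background 18%) and none higher (background 16.3%) without WT replicate 1. Their median was −0.05, against −0.01 over all genes tested. Rpl22l1, the paralog of Rpl22, had 13.1, 14.7 and 17.2 CPM in the knockdown libraries, against 102.9, 23.4 and 23.8 CPM in the WT libraries. All knockdown libraries of Rpl22l1 lay below all WT libraries, with a log2 fold change of −0.67 ± 0.12 (SE; edgeR, adjusted p = 0.0016). Rpl22 itself had −0.10 ± 0.18 (adjusted p = 0.73). Fau, which encodes a small subunit protein fused to a ubiquitin-like domain, had −0.30 ± 0.09 (adjusted p = 0.049). Rack1, the scaffold on the small subunit head, had −0.01 ± 0.06 (adjusted p = 0.89). Rpl36al and Rpl7l1 had −0.09 and 0.09 (adjusted p = 0.72 and 0.15).

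Other messenger RNAs with TOP tracts encode elongation and initiation factors and further proteins such as Npm1 and Tpt1. Of 17 such genes, 2 were higher (background 16.3%) and 4 lower (background 18%) without WT replicate 1. Their median was 0.0027, against −0.0091 over all genes tested. The higher ones were Eif2s3x, a subunit of the factor that brings the initiator tRNA, at 0.27 ± 0.05 (SE; edgeR, adjusted p = 0.0015), and Eif3h at 0.26 ± 0.04 (adjusted p = 0.0011). The lowest were Npm1, a nucleolar chaperone, at −0.39 ± 0.05 (adjusted p = 1.31e-04), and Eef1b2, at −0.23 ± 0.08 (adjusted p = 0.058), which did not pass. Npm1 had 873.6, 914.1 and 920.9 CPM in the knockdown libraries, against 2120, 1153 and 1191 CPM in the WT libraries. With all 6 libraries the median of the 17 genes was −0.42 and none was called (background 0%). Unlike most ribosomal protein genes, Eef2 had 2029, 2176 and 2130 CPM in the knockdown libraries, against 1014, 2298 and 2197 CPM in the WT libraries, lowest in WT replicate 1.

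Among 7 dedicated chaperones of ribosomal proteins, 1 was higher (background 16.3%) and none lower (background 18%) without WT replicate 1. Tsr2, which escorts Rps26, had 19.9, 20.4 and 22.5 CPM in the knockdown libraries, against 28.0, 14.4 and 14.4 CPM in the WT libraries, and a log2 fold change of 0.53 ± 0.10 (SE; edgeR, adjusted p = 0.0021). The others did not pass: Pdcd2l had 0.33, Grwd1 0.19, Bccip 0.09, Heatr3 0.05, Pdcd2 −0.03 and Ltv1 −0.06 (adjusted p between 0.056 and 0.93). Among 6 genes of proteins that bind TOP or other ribosomal protein messenger RNAs, Larp1 was higher (background 16.3%) and Larp1b and Cnbp were lower (background 18%). Larp1, which binds the cap and the TOP tract, had 345.5, 354.4 and 341.5 CPM in the knockdown libraries, against 213.8, 287.6 and 280.1 CPM in the WT libraries. The groups did not overlap, and the log2 fold change was 0.27 ± 0.04 (SE; edgeR, adjusted p = 9.03e-04). Larp1b had −0.23 ± 0.08 (adjusted p = 0.046) and Cnbp −0.15 ± 0.05 (adjusted p = 0.028), while Larp4, Larp4b and Ssb had 0.04, 0.01 and 0.03 (adjusted p = 0.65, 0.92 and 0.64).

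The TOP tract was sought in RefSeq promoter sequence (GRCm38.p6), as a C followed by at least 4 bases that are each C or T, lying within the 10 bases on either side of the annotated start and read on the gene's strand only. It was found in 34 of the 61 members present in the promoter table (55.7%), against 7773 of all 27025 genes in it (28.8%). The share was 57.9% for the large and 52.2% for the small subunit. Of the 7 genes called without WT replicate 1, 5 were in the table, and the window of each is shown, 30 bases before and 20 from the start on, with the part of the run inside those 20 searched bases in capitals.
Rplp2 (chr7:141447621-141447670, plus strand): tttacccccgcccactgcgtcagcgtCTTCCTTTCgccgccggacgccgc
Rpl12 (chr2:32961682-32961731, plus strand): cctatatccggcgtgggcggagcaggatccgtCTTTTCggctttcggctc
Rpl27a (chr7:109519165-109519214, plus strand): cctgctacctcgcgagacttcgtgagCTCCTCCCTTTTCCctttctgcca
Rps10 (chr17:27635225-27635274, minus strand): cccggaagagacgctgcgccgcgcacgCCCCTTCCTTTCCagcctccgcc
Rpl5 (chr5:107900498-107900547, plus strand): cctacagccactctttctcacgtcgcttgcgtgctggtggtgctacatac
A run was present in the searched bases of Rplp2, Rpl12, Rpl27a and Rps10 and not in those of Rpl5, whose pyrimidine run in the printed stretch lies further before the annotated start. In Rpl27a the run goes on past the searched bases. A match describes the letters in this window and not the start used in these cells.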

How the data were processed

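Expected counts and TPM per gene were deposited by the authors for 6 RNA-seq libraries; per the submitters' processing notes, the tools included HISAT2, StringTie, fastp and DESeq2, with no version, and the builds were the human hg38 and GRCh38, although the identifiers are those of mouse. The sources used here do not give the counting program or strandedness. No pair of libraries of a group agreed within sampling noise. Counts were rounded and compared with edgeR 4.0.16 (filterByExpr, TMM, robust quasi-likelihood F test, two-sided) in R 4.3.3; the Benjamini-Hochberg adjustment ran over the whole table, with calls below 0.05. SE is the fold change over the square root of F. Fits used all 6 libraries or left out WT replicate 1. Alternatives were other scalings, no filter, DESeq2 1.42.0, limma 3.58.1 (voom, and log2 TPM with 1 or 0.1 added), trends with length and GC removed, the replicate number as a block, and each library left out. Near-identical rows came from aligning GENCODE M21 transcripts of at least 150 bases, and their addition was chosen after seeing the data. The fits were also run on simulated counts with the same dispersion for every gene. These held no library that stood apart and no length or GC trend, so they cannot show how the fits handle such libraries. Named genes were the 8 highest and 8 lowest log2 fold changes without WT replicate 1, the 4 most abundant per subunit, the paralogs, the untested members and, per further list, up to 2 at each end or all of at most 7; any further gene was picked with its values in view. Members and lists were chosen with earlier results of these data known. Some genes that this rule names are not reported here.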

Additional observations from a re-analysis of the deposited data

How the results depend on the processing

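With all 6 libraries, the count of called members was 0 in every alternative that kept them except DESeq2 (1). On omission of single libraries it ranged from 0 to 7. Of all genes tested, 4.78% were called by DESeq2, 6.0% with the length trend removed and 4.0% with length and GC trends removed. The share was at most 0.061% in the other alternatives with all 6 libraries. On omission it was 34.3% without WT replicate 1 and 0% otherwise. The median of the members ranged from −1.13 to −0.059 on omission, the end value being that without WT replicate 1. Without WT replicate 1, the 7 calls became 16 with no filter (8 higher, 8 lower; 21.76% of all genes tested were called), 12 by DESeq2 (30.7%), 11 on log2 TPM with 1 or 0.1 added (17.8% and 18.3%), 18 with the length trend removed (8 higher, 10 lower; 35.5%), 21 with length and GC trends removed (5 higher, 16 lower), and 3 to 29 on omission of a further library, with the spread of a single remaining WT library taken from the knockdown group. The cause of these shifts was not tested. The highest number came without knockdown replicate 1 and the lowest without WT replicate 3. The groups share replicate numbers in the library names, but only a number. Deviations of same-numbered libraries from their group means correlated at −0.13, 0.04 and −0.19, and no library correlated best with its own number. With the replicate number as a block, 28 members were called without WT replicate 1 (20 higher, 8 lower; 38.0% of all genes tested), Rplp2 no longer among them (0.70, adjusted p = 0.074), in a fit where knockdown replicate 1 has a term of its own, and 0 with all 6 libraries. The median without WT replicate 1 and the difference between subunits moved by less than 1 SD between libraries in every alternative run. For the share of counts and the ratio of subunits WT replicate 1 itself sets most of that SD, so it is no measure of stability: the difference in share ranged from −2.70 to 0.11 percentage points and that in ratio from 0.073 to 0.17 on omission of a library.

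Several named genes changed sign. With WT replicate 1 included, log2 fold changes were −0.35 for Rps10, −0.018 for Rps26, −0.91 for Rpl19, −0.60 for Rps2 and −0.38 for Rpl8. The other reversals concerned abundant genes and Rps27l, all close to 0 without WT replicate 1. Omission of a further library gave −0.0901 to 0.052 for Rpl23a, −0.047 to 0.12 for Rpl19, −0.11 to 0.097 for Rpl26, −0.11 to 0.11 for Rps18, −0.095 to 0.089 for Rps12 and −0.13 to 0.14 for Rps27l. Library totals gave 0.0046 for Rpl23a, 0.0093 for Rps12 and 0.0304 for Rps27l. On log2 TPM with 1 or 0.1 added, values were 0.043 for Rpl23a, 0.029 for Rpl26, 0.0217 for Rps18, 0.0396 for Rps12 and 0.074 for Rps27l. The replicate block gave 0.042 for Rpl23a, 0.088 for Rpl26, 0.096 for Rps18, 0.0798 for Rps12 and 0.12 for Rps27l. With the length trend removed, Rpl23a had 0.024, Rps18 0.012, Rps12 0.057 and Rps27l 0.039. With length and GC trends removed, Rpl23a had 0.0495, Rpl19 −0.067, Rps18 0.0014, Rps12 0.14 and Rps27l 0.15. Rps27l also had 0.0074 with DESeq2 size factors, 0.013 with no filter and 0.0066 by DESeq2.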

Other observations

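Rows near-identical to a ribosomal protein gene differed from their parent gene in log2 fold change without WT replicate 1 in 3 examples, chosen after their values were seen; the difference from the parent was not tested. Rps13-ps1, which differs from Rps13 at 2 of 453 coding bases, had 70.2, 23.4 and 41.3 CPM in the knockdown libraries, against 0.73, 2.22 and 3.77 CPM in the WT libraries. All knockdown libraries lay above all WT libraries, including WT replicate 1, and the log2 fold change without WT replicate 1 was 3.85 ± 0.78 (SE; edgeR, adjusted p = 0.041), against −0.08 ± 0.52 (adjusted p = 0.93) for the row of Rps13; with all 6 libraries it was 4.29 (adjusted p = 0.10). Rps6-ps4, which holds the same 747 coding bases as Rps6, had 177.7, 78.3 and 201.7 CPM in the knockdown libraries, against 465.7, 13.5 and 25.6 CPM in the WT libraries (2.93 ± 0.68, adjusted p = 0.058). Rpl14-ps1 had 75.4, 23.6 and 66.4 CPM in the knockdown libraries, against 258.3, 6.88 and 2.24 CPM in the WT libraries (3.64 ± 0.95, adjusted p = 0.073). The rows Rps6-ps4 and Rpl14-ps1 did not pass, and with all 6 libraries their log2 fold changes were −0.14 and −0.69, of the same sign as Rps6 (−0.91) and Rpl14 (−0.62). The sums of Rps6 and of Rpl14 with their near-identical rows had log2 fold changes of −0.04 and −0.07 without WT replicate 1. The sum for Rps13 had 0.23 ± 0.11 (SE; edgeR, adjusted p = 0.17), and −0.58 with all 6 libraries. The own row of Rps13 had 52.25, 120.2 and 130.1 CPM in the knockdown libraries, against 179.7, 120.1 and 92.6 CPM in the WT libraries. It was thus lowest in knockdown replicate 1, where Rps13-ps1 was highest. Whether these rows are transcribed or receive reads of the parent gene was not tested.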
